A study of Mus musculus with 22 samples.

Results

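Expression of 10 genes that respond to or act in glucocorticoid signaling was examined in mammary tissue of single mice. The genes were chosen by symbol (Fkbp5, Tsc22d3, Zbtb16, Sgk1, Klf9, Nr3c1, Hsd11b1, Mt1, Mt2 and Pdk4) among the 52526 gene symbols measured, and all 10 were above the lower limit of the data in each of the 22 mice, so that no member was lost to the filter that left 15138 genes for testing. The mice were female C57BL/6J animals of 7 to 8 weeks, housed for 2 weeks with a running wheel on a hub (wheel mice) or with the hub alone (control mice). EO771 cells, a mammary cancer line of the same strain that had been transduced with firefly luciferase, were then engrafted into the left 4th mammary fat pad of every mouse, controls included, and the tissue was collected after 24 hours. All mice also received intravenous liposomes 24 hours before and again at engraftment, filled either with PBS or with clodronate, which is toxic to the phagocytic cells that ingest it. PBS liposomes were given to 6 control and 6 wheel mice, and clodronate liposomes to 5 of each. Corticosterone and running distance were not analysed here, and the hour of tissue collection is not given in the sources used here.

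Glucocorticoids, chiefly corticosterone in mice, cross the cell membrane and bind the glucocorticoid receptor, which then leaves its chaperones, enters the nucleus and acts on genes near the DNA elements it recognizes. In fat tissue and mammary gland these hormones control fuel use, inflammation and epithelial differentiation, and their blood level follows the time of day, stress and physical activity. The same genes answer to other signals as well. Metallothionein genes respond to zinc through a metal-sensing factor, and Pdk4 responds to fatty acids and fasting, so that no member reads hormone action alone.

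Short stretches upstream of 3 members are shown because these are the members with the lowest unadjusted p-values in the comparisons below. The stretches also hold letter matches to the elements through which hormone or metal can act. RefSeq promoter sequences (GRCm38.p6, 250 bases before to 50 after an annotated start) were found for 8 of the 10 genes, in 15 windows, and only the 250 bases before the start are printed, 5′ to 3′. In the Sgk1 stretch, chr10:21993640-21993889 on the plus strand, capitals mark a full palindromic glucocorticoid response element (AGAACA, then NNN for any 3 bases, then TGTTCT, searched on both strands, with TGTTCT its half-site), beginning 189 bases before the start. In the stretches of Mt1 (chr8:94178839-94179088, plus strand) and Mt2 (chr8:94172368-94172617, plus strand), capitals mark the core of the metal response element (TGCACNC or TGCGCNC, on either strand).
Sgk1: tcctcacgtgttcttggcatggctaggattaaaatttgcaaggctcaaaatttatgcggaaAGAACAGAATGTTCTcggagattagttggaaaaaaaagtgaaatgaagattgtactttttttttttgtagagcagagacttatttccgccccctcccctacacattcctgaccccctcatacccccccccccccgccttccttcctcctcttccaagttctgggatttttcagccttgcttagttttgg
Mt1: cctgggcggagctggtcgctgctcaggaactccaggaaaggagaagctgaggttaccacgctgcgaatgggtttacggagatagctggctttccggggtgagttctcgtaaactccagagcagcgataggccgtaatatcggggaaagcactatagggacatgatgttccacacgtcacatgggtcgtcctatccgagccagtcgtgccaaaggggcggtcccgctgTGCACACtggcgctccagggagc
Mt2: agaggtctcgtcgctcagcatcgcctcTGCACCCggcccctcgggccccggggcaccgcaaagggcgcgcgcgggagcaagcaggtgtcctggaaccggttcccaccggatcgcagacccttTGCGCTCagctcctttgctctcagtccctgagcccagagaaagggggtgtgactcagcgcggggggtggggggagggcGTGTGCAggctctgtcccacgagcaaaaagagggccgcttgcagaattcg
The full glucocorticoid element was present in 3 of 32851 promoter windows (0.00913%), one of them this Sgk1 window among the 6 windows of that gene, and its half-site in 18.97%. Among the members, only windows of Sgk1 and Tsc22d3 held the half-site. Those of Fkbp5, Klf9, Hsd11b1, Mt1, Mt2 and Pdk4 held 0 half-sites and 0 full elements. The metal core was more common, in 25.7% of windows, and the whole window held 3 cores for Mt1 (1 before the start, 2 after) and 4 for Mt2 (3 before, 1 after), while 0.518% of all windows held 4 or more. These matches describe letters in a window and say nothing of binding in this tissue.

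The level of each gene was compared on the scale of CPM, the reads of a gene scaled to the size of its library. QuantSeq reads the 3′ end of a transcript, so that levels of different genes can be set side by side without a correction for length. Over the 22 mice, Mt1 had the highest mean level, 314 ± 94.1 CPM (SD), followed by Klf9 at 305 ± 79.8 and Mt2 at 233 ± 124 CPM. The receptor gene Nr3c1 stood at 96.4 ± 22.9 CPM and Tsc22d3 at 80.7 ± 20.6. Lower again were Zbtb16 (41.2 ± 17.5), Fkbp5 (35.1 ± 9.61), Sgk1 (31.8 ± 12.3) and Hsd11b1 (29.0 ± 13.3), with Pdk4 lowest at 7.84 ± 9.32 CPM. Neighbors in this order differed by less than the larger of their SDs except at 3 steps, from Mt2 to Nr3c1, from Tsc22d3 to Zbtb16 and from Hsd11b1 to Pdk4. The libraries held 13256467 to 20484578 reads (median 16293026), and in all of them values under 1 CPM had been raised to 1. Fat and epithelium were plainly present in the tissue, with Adipoq at 865 to 2656 CPM and Epcam at 34.4 to 111.1 CPM. Markers of other cells set some mice apart. A lymphocyte score (the mean log2(CPM + 1) of 12 T and B cell markers) lay between 4.35 and 5.83 in 5 mice, namely control mouse 2 and wheel mouse 3 with PBS liposomes and wheel mice 3, 4 and 5 with clodronate liposomes, and between 1.00 and 1.41 in the other 17, so that most of the lymphocyte-rich mice belonged to 1 group. A skeletal muscle score of 12 genes ranged from 1.59 to 10.49, with the highest values in control mouse 2 (10.49) and wheel mouse 2 (9.55) given clodronate. Expression in bulk tissue cannot tell fewer cells of a type from less RNA per cell. RNA of the engrafted EO771 cells, a line of the same strain, was not told apart from that of the mouse for any gene.

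**Figure D1:**
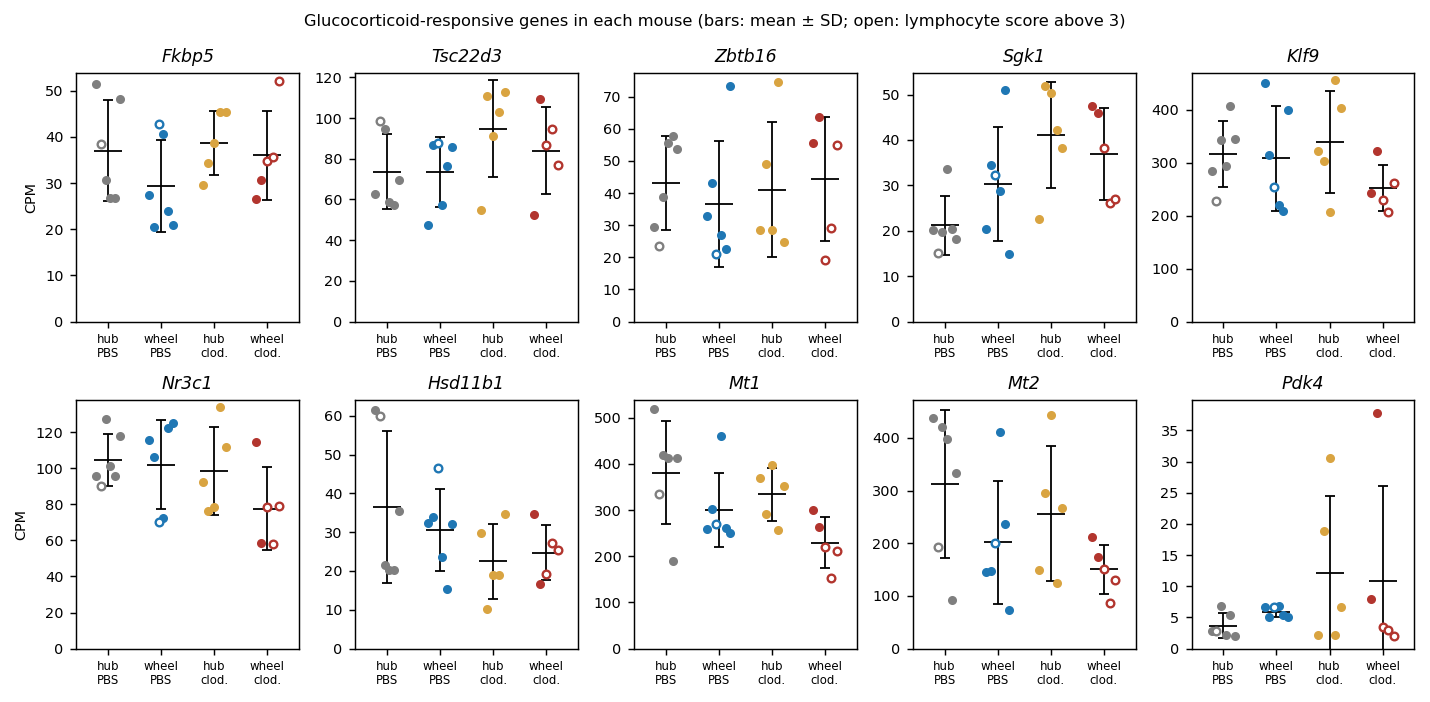
CPM of each of the 10 genes in each mouse (points), by group, with the group mean and SD (black bars, cut at 0 for Pdk4); open points are the 5 mice with a lymphocyte score above 3. All groups overlap for each gene, wheel mice lie low for Mt1 and Mt2, and single mice reach 30.6 and 37.7 CPM for Pdk4.

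None of the 10 genes passed an adjusted p of 0.05 in any of 5 comparisons: wheel against control with each liposome and averaged over both, clodronate against PBS averaged over activity, and the interaction. Clodronate against PBS within control mice and within wheel mice, added after seeing the data, gave 0 of the 10 genes as well (0% and 0.00661% of all genes, with 1 gene called in wheel mice). At an unadjusted p under 0.05 these gave 1 gene (Sgk1, in control mice; 6.99% of all genes) and 0 (11.6%). Differences are given as log2 changes of CPM + 1 from limma, with the standard error (SE) and with p-values adjusted over the 15138 genes. Few genes of any kind passed. The share was 0% for wheel against control with PBS liposomes, 0.00661% (1 gene) for the same comparison with clodronate liposomes, 0% for the wheel effect averaged over liposomes, 0.205% (31 genes, all lower) for clodronate against PBS averaged over activity, and 0% for the interaction. At an unadjusted p under 0.05, 0 of the 10 genes were found in the wheel comparison with PBS liposomes (background 4.91%, or 744 genes), 1 with clodronate liposomes (Mt1, lower; 10.4%, with 3.4% of genes lower), 2 for the averaged wheel effect (Mt1 and Mt2, both lower; 8.09%, with 4.16% of genes lower), 1 for clodronate (Sgk1, higher; 10.4%, with 2.13% of genes higher) and 0 for the interaction (7.58%, or 1147 genes). None of the 10 genes had wheel and control mice that did not overlap, with PBS (0.264% of all genes) or with clodronate (1.27%), nor did any separate the 10 clodronate from the 12 PBS mice (0%). Changes below 0 were found for 8 of the 10 genes for the wheel with PBS (63.8% of all genes), 8 with clodronate (49.3%), 7 for the averaged wheel effect (57.3%), 5 for clodronate (57.4%) and 7 for the interaction (40.8%). The median change of the 10 genes with the wheel, averaged over liposomes, was -0.15, beside -0.04 over all genes tested. For clodronate it was -0.0045 beside -0.042.

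**Figure D2:**
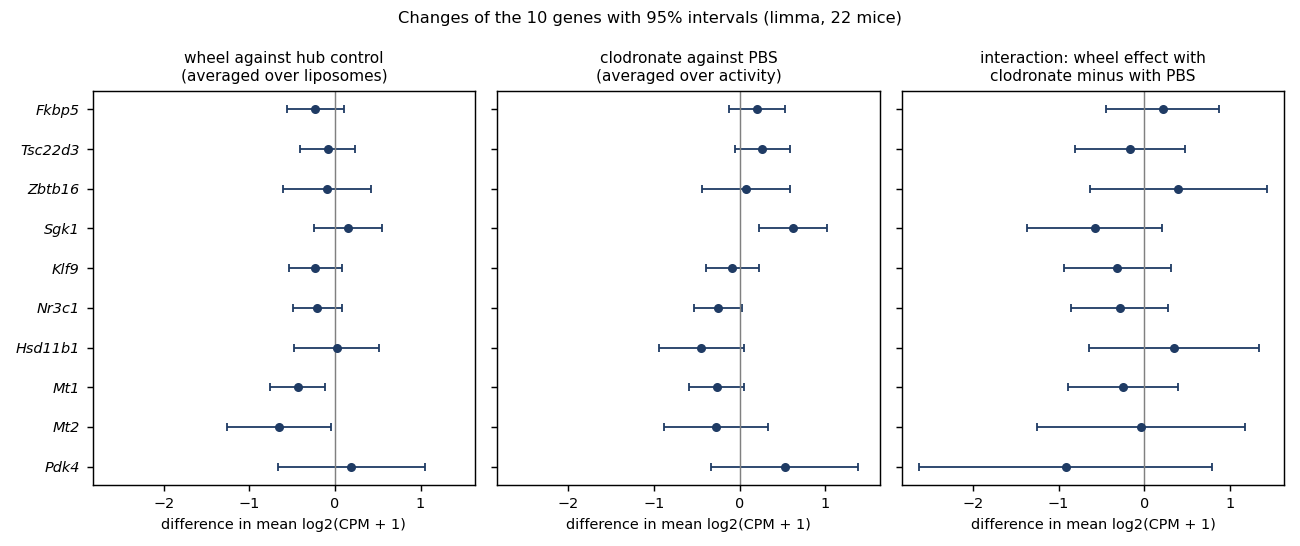
Log2 change of each gene (points, limma, 22 mice) with its 95% confidence interval (bars) for the wheel effect averaged over liposomes, the clodronate effect averaged over activity, and their interaction. The intervals of Mt1 and Mt2 lie below 0 in the first panel and that of Sgk1 above 0 in the second, and the remaining 27 of 30 intervals cross 0.

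At the start of the pathway, Nr3c1 encodes the receptor, Hsd11b1 the enzyme that regenerates active glucocorticoid inside cells, and Fkbp5 a chaperone of the receptor that is strongly induced by it and feeds back on it. Nr3c1 (chr18:39410545-39519421, minus strand) had 89.98 to 127.4 CPM in control mice with PBS liposomes (median 98.6) and 70.2 to 125.3 in the wheel mice beside them (median 111). With clodronate the 5 control mice had 92.2, 76.3, 78.4, 133.9 and 112 CPM and the 5 wheel mice 115, 58.5, 78.4, 57.9 and 79.2. Wheel and control mice overlapped with either liposome, and the wheel effect was -0.06 (SE 0.18) with PBS and -0.35 (SE 0.20, adjusted p = 0.594) with clodronate. The receptor gene was -0.25 (SE 0.14) apart between clodronate and PBS mice, with a 95% interval of -0.54 to 0.03 and an adjusted p of 0.537. Stretches within the last 400 bases of its transcripts match 25 other genes, the longest match covering 17% of those bases. Some of its reads may therefore map to more than 1 place.

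Hsd11b1 (chr1:193221634-193264075, minus strand) was spread more widely, from 20.1 to 61.5 CPM in control mice with PBS (median 28.4) and from 15.2 to 46.6 in wheel mice with PBS (median 32.3). With clodronate its values were 29.8, 10.2, 18.8, 18.9 and 34.6 CPM in control mice and 34.6, 16.6, 19.3, 27.3 and 25.5 in wheel mice. The 3 highest mice of the series, at 61.5, 59.8 and 46.6 CPM, all had PBS liposomes. Those at 59.8 (control mouse 2) and 46.6 CPM (wheel mouse 3) were lymphocyte-rich. The clodronate change was within the spread between mice, at -0.45 (SE 0.24, interval -0.94 to 0.05, adjusted p = 0.53), and that of the wheel was 0.02 (SE 0.24). Leaving out the lymphocyte-rich mice was chosen after seeing the data. The clodronate change within control mice was then -0.45, beside -0.62 with all mice. Within wheel mice it was -0.13, beside -0.27, with only mice 1 and 2 of the clodronate group kept. Exon sequence of Hsd11b1 overlaps the span of the antisense gene Lamb3, which reached 26.5 CPM, although QuantSeq FWD keeps strand.

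Fkbp5 (chr17:28399094-28517527, minus strand) is a widely used readout of the receptor. Control mice with PBS liposomes had 26.7 to 51.5 CPM (median 34.5) and wheel mice 20.5 to 42.8 (median 25.7). In the clodronate arm the values were 29.7, 34.3, 38.6, 45.4 and 45.5 CPM in control mice and 26.6, 30.8, 34.8, 35.7 and 52.2 in wheel mice. With PBS the lowest wheel mice were below all controls, and with clodronate wheel mice spanned the range of theirs. The change with the wheel was -0.34 (SE 0.21, interval -0.78 to 0.11, adjusted p = 0.988) with PBS, -0.12 (SE 0.23) with clodronate and -0.23 (SE 0.16, adjusted p = 0.73) averaged. Without the 5 lymphocyte-rich mice, in an alternative chosen after seeing the data, the averaged change was -0.42 (adjusted p = 0.733). Clodronate mice differed from PBS mice by 0.20 (SE 0.16).

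Among the direct targets of the receptor, Tsc22d3 (chrX:140539528-140600659) encodes GILZ, a protein that mediates anti-inflammatory actions of the hormone, Zbtb16 (chr9:48654297-48836222) the factor PLZF, Klf9 (chr19:23141226-23168134) a Krüppel-like factor, and Sgk1 (chr10:21882184-21999903) a kinase that regulates ion transport and cell survival. Tsc22d3 differed between wheel and control mice by -0.003 (SE 0.21) with PBS, where both groups averaged near 73.5 CPM (73.54 ± 18.4 in control and 73.52 ± 17.3 in wheel mice, SD, n = 6 each). With clodronate its mean was 94.7 ± 23.8 CPM in control and 84.0 ± 21.3 in wheel mice (n = 5 each), so that clodronate mice were higher by 0.27 (SE 0.15, interval -0.05 to 0.59, adjusted p = 0.566). Zbtb16 showed no such pattern: it ran from 19.1 to 74.4 CPM over all mice, its 4 group means lay between 36.6 and 44.5 CPM, and its changes were -0.09 (SE 0.25) with the wheel and 0.08 (SE 0.25) with clodronate. Its SD within groups, 0.64 on the log2 scale, was above that of 92.8% of the 1914 genes of like level (within 0.5 log2 of its mean).

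Klf9 had 227 to 407 CPM (median 319) in control and 209 to 452 (median 285) in wheel mice with PBS. In the clodronate arm, control mice had 323, 304, 207, 457 and 404 CPM, and wheel mice 242, 322, 230.5, 207 and 262. Wheel mice with clodronate lay in the lower part of the range of their controls, and the last 3 of them were lymphocyte-rich. Over all groups the median of Klf9 was 230.5 CPM in the 5 lymphocyte-rich mice and 322 in the other 17, and that of Nr3c1 was 78.4 and 106. The wheel change was -0.07 (SE 0.20) with PBS and -0.39 (SE 0.22, adjusted p = 0.588) with clodronate, and the interaction, -0.31 (SE 0.30, adjusted p = 0.871), did not pass. Without the lymphocyte-rich mice the wheel change with clodronate was -0.23 for both Klf9 and Nr3c1 (adjusted p = 0.981 for each), a move of more than 1.5 times.

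Sgk1 gave the lowest unadjusted p of the 10 genes. In control mice with PBS liposomes it ranged from 15.2 to 33.7 CPM (median 19.9), and in wheel mice with PBS from 15.0 to 51.0 (median 30.5). Control mice given clodronate had 22.7, 51.9, 50.3, 42.3 and 38.3 CPM, and wheel mice given clodronate 47.6, 45.9, 38.2, 26.2 and 26.9. All 10 clodronate mice were above the median of the 12 PBS mice (20.4 CPM), although 1 wheel mouse with PBS, at 51.0 CPM, was close to the highest clodronate mouse. The share of all genes with such a count was not computed. Averaged over activity, the level of Sgk1 was 1.54-fold higher with clodronate (log2 change 0.62, SE 0.19, interval 0.23 to 1.02), with an unadjusted p of 0.0034 and an adjusted p of 0.188 (limma, rank 273 of 15138 genes). The adjusted p ranged from 0.138 to 0.447 over the other ways of processing with all mice and was 0.0621 at its lowest when 1 mouse was left out. Within control mice the clodronate change was 0.91 (SE 0.27, interval 0.35 to 1.47, adjusted p = 0.438) and within wheel mice 0.33 (SE 0.27, interval -0.22 to 0.89, adjusted p = 0.69). The averaged change was 0.79 (adjusted p = 0.219) without the lymphocyte-rich mice and 0.53 without the 2 mice with a muscle score above 9. Of the cell scores, that of mammary epithelium, which correlated with Sgk1 between mice (below), averaged 5.97 and 5.84 in control and wheel mice with PBS and 6.34 and 5.95 with clodronate, and its part in the difference was not tested. The change with the wheel was 0.44 (SE 0.26) with PBS and -0.14 (SE 0.28) with clodronate, and the interaction was -0.58 (SE 0.38, interval -1.37 to 0.21, adjusted p = 0.755).

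Mt1 and Mt2 encode metallothioneins, small proteins that bind zinc and other metals and are induced by metals as well as by glucocorticoids. Both lie on chromosome 8 (chr8:94179082-94180327 and chr8:94172664-94173568, plus strand), with 5513 bases between them. For Mt1, control mice with PBS had 189 to 519.9 CPM (median 413) and wheel mice 250.2 to 460.1 (median 265). With clodronate the control values were 369.6, 292, 399, 257 and 353 CPM and the wheel values 300.4, 263, 219, 153 and 211. Of the 11 wheel mice, 10 lay below the median of the 11 control mice (369.6 CPM), while the ranges overlapped. The averaged wheel change of Mt1 was -0.44 (SE 0.15, interval -0.76 to -0.12), or 0.739 times the control level, with an unadjusted p of 0.00982 and an adjusted p of 0.567. It was -0.31 (SE 0.21) with PBS and -0.56 (SE 0.23, adjusted p = 0.36) with clodronate liposomes.

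Mt2 had the same order of groups. Its values ran from 91.5 to 438 CPM (median 366) in control and from 72.8 to 412 (median 174) in wheel mice with PBS. Those with clodronate were 149, 295, 444, 124 and 267 CPM in control mice and 212, 173.5, 150.3, 86.7 and 129.8 in wheel mice. Here too 10 of 11 wheel mice lay below the control median (295 CPM), with 1 wheel mouse, number 4 with PBS, among the highest for both genes. Mt1 and Mt2 varied together between mice (r = 0.82, group means removed), so their counts are not independent. How many of all genes reach such a count was not computed. The averaged change was -0.65 (SE 0.29, interval -1.26 to -0.04, unadjusted p = 0.0366, adjusted p = 0.60), and the interaction was -0.04 (SE 0.59). The SD of Mt2 within groups, 0.77 on the log2 scale, exceeded that of 96.1% of 285 genes of like level. The wheel group with clodronate, where both genes were lowest, also held 3 of the 5 lymphocyte-rich mice, and all 12 lymphocyte markers were higher there than in its controls at an unadjusted p under 0.05. Without those 5 mice the averaged change was -0.27 for Mt1 (adjusted p = 0.839) and -0.52 for Mt2 (adjusted p = 0.849), so that for Mt1 it moved by more than 1.5 times. Both averaged changes stayed below 0 under the other scalings and with any 1 mouse left out. The score of dividing cells, which varied with Mt2 (below), averaged 3.32 in control and 2.51 in wheel mice with PBS, and 2.71 and 2.88 with clodronate, and its part in the wheel change was not tested. Clodronate itself was accompanied by changes of -0.27 (SE 0.15) for Mt1 and -0.27 (SE 0.29) for Mt2, neither past the threshold. Without the lymphocyte-rich mice, the clodronate change within wheel mice was -0.09 for Mt1 (-0.39 with all mice). For Mt2 it turned to 0.15 (-0.29 with all mice). Within control mice the values were -0.17 for Mt1 (-0.14 with all mice) and -0.36 for Mt2 (-0.25 with all mice).

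**Figure D3:**
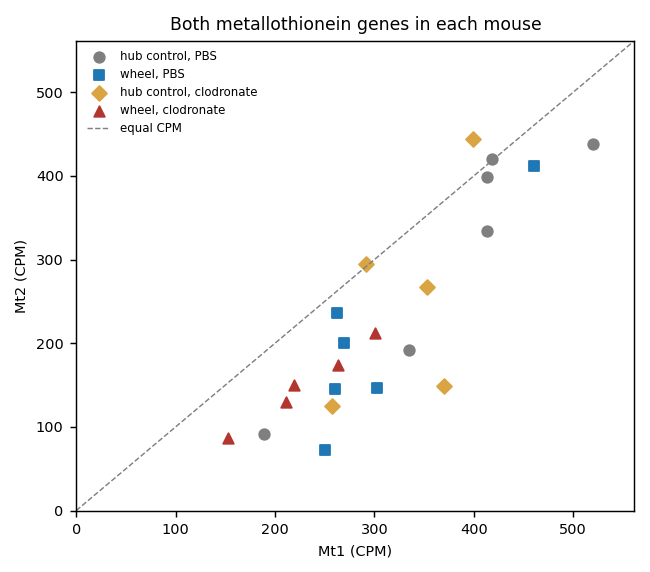
Mt2 against Mt1 in CPM for each of the 22 mice, with symbols for the 4 groups and a dashed line of equal CPM. The genes rise together (r = 0.82 after removal of group means), 19 of 22 mice lie below the line, and wheel mice with clodronate (triangles) sit at 153 to 300.4 CPM of Mt1.

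Pdk4 (chr6:5483351-5496309, minus strand) encodes a kinase that switches off pyruvate dehydrogenase and so spares glucose, and it is abundant in muscle. With PBS liposomes its level was 2.06 to 6.88 CPM (median 2.82) in control and 4.99 to 6.78 (median 6.01) in wheel mice. With clodronate it was 2.15, 18.9, 30.6, 2.23 and 6.64 CPM in control and 7.92, 37.7, 3.52, 3.04 and 2.08 in wheel mice. The 6 wheel mice with PBS were close together at the upper end of their controls' range, whereas with clodronate 3 mice stood far above all others. Those 3 mice, control mice 2 and 3 and wheel mouse 2, had muscle scores of 10.49, 7.13 and 9.55. Control mouse 3 with PBS, at 7.55, had the highest Pdk4 of its group, 6.88 CPM. Control mouse 6 with PBS, at 6.28, had the lowest, 2.06 CPM. Wheel mice 4 and 6 with PBS, at muscle scores of 1.59 and 1.602, had 6.78 and 4.99 CPM. The relation of Pdk4 to muscle within the PBS mice alone was not tested. All 12 muscle markers had log2 changes above 0 with clodronate, with 0 at an unadjusted p under 0.05. The wheel change was 0.65 (SE 0.56, interval -0.51 to 1.81) with PBS and -0.27 (SE 0.61) with clodronate. The clodronate change was 0.53 (SE 0.41, adjusted p = 0.692), 0.07 without the 2 mice of highest muscle score and 1.20 without the lymphocyte-rich mice, so that it rested on which mice were counted. The averaged wheel change moved in the same way, from 0.19 to 0.04 and 0.84. Of the wheel mice with clodronate, the fit without lymphocyte-rich mice kept only mice 1 and 2.

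Whether the genes vary together between mice was examined after removal of the 4 group means, with Fkbp5 as reference (22 mice, 100000 permutations of mice within groups). Pearson's r of Fkbp5 with the 9 other genes lay between -0.33 and 0.39, with 4 of 9 above 0, and none passed (lowest permutation p = 0.101 for r and 0.0693 for Spearman's rho; lowest adjusted p = 0.464 and 0.483). In the 17 mice that were not lymphocyte-rich, a subset chosen after seeing the data, r of Fkbp5 was given without a test. It was highest with Mt1 (0.51, and 0.24 in all mice) and Mt2 (0.48, and 0.32 in all mice). With Hsd11b1 it was 0.33 (0.39 in all mice) and with Tsc22d3 0.02 (0.12 in all mice). With Zbtb16, Nr3c1, Klf9, Sgk1 and Pdk4 it lay between -0.31 and -0.02. Over all 45 pairs of the 10 genes, looked at after the data had been seen, Mt1 and Mt2 were the only pair to pass on both measures (r = 0.82, rho = 0.80, permutation p = 3e-05 for each, adjusted p = 0.00135, and r = 0.69 without the 2 mice farthest from the median). Zbtb16 and Klf9 had r = 0.62 (adjusted p = 0.0947) and rho = 0.67 (adjusted p = 0.0311, permutation). The median r over the 45 pairs was -0.05, and 18 of 45 were above 0.

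The genes were also compared with cell types. Each was set against 7 scores of marker genes, 70 relations in all, of which 12 passed an adjusted permutation p of 0.05 on both r and rho. The lymphocyte score was left out because the mice fall into separate clusters on it. Klf9 followed the adipocyte score most closely (r = 0.79, rho = 0.83, permutation p = 0.00012 and 2e-05, adjusted p = 0.0084 and 0.0014, r = 0.82 without the 2 farthest mice), and also the endothelial (r = 0.69) and fibroblast (r = 0.58) scores, against that of dividing cells (r = -0.71). Nr3c1 was related to the same 3 scores, with r = 0.63 for adipocytes, 0.62 for fibroblasts and 0.61 for endothelium. Fkbp5 was related to other scores, up with the macrophage score (r = 0.69, rho = 0.65, permutation p = 0.00093 and 0.00134, adjusted p = 0.0148 and 0.0313) and down with that of epithelium (r = -0.70, adjusted permutation p = 0.0148, rho = -0.65).

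Sgk1 was related to epithelium in the opposite direction (r = 0.61, rho = 0.63, permutation p = 0.00959 and 0.00533, adjusted p = 0.048 and 0.0373), with r = 0.68 without the 2 mice farthest from the median. Mt2 followed dividing cells (r = 0.74, rho = 0.66, permutation p = 0.00093 and 0.00358, adjusted p = 0.0148 and 0.034), and Mt1 had r = 0.58 with them without passing. The part of the engrafted EO771 cells in the dividing cell score was not tested. Pdk4 followed muscle (r = 0.79, rho = 0.69, permutation p = 0.00141 and 0.00513, adjusted p = 0.0148 and 0.0373), with r = 0.67 without the 2 farthest mice. In the 17 mice that were not lymphocyte-rich, r kept its sign and stood at 0.78 for Klf9 with adipocytes, 0.71 for Fkbp5 with macrophages, -0.57 for Fkbp5 with epithelium, 0.75 for Sgk1 with epithelium, 0.89 for Mt2 with dividing cells and 0.76 for Pdk4 with muscle. Tsc22d3, Hsd11b1, Zbtb16 and Mt1 had no relation that passed on both measures.

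**Figure D4:**
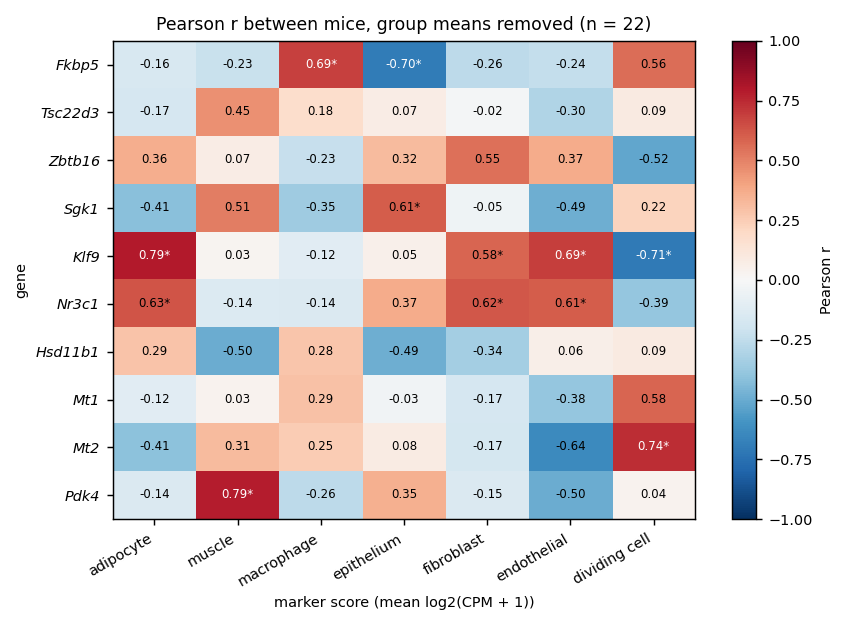
Pearson's r between each gene (rows) and each of 7 marker scores (columns) over 22 mice after removal of group means, colored from -1 (blue) to 1 (red), with an asterisk where the adjusted permutation p is under 0.05 for both r and rho. Klf9 and Nr3c1 share positive values with adipocytes, fibroblasts and endothelium, while Fkbp5, Mt2 and Pdk4 each stand out in another column.

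**Figure D5:**
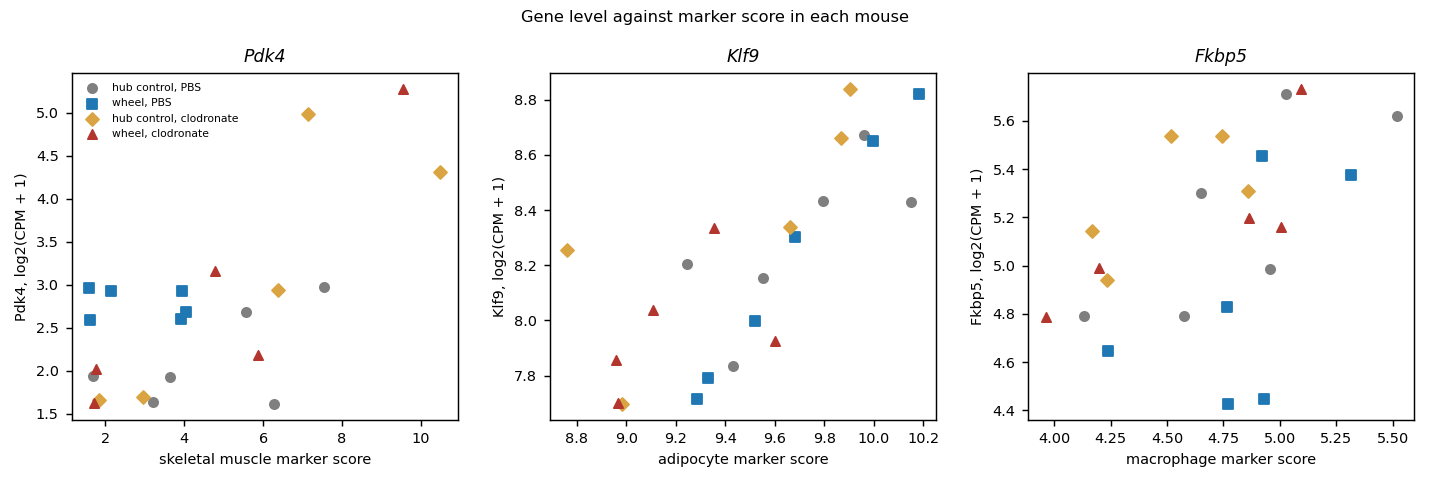
Log2(CPM + 1) of Pdk4, Klf9 and Fkbp5 in each mouse against the skeletal muscle, adipocyte and macrophage scores (mean log2(CPM + 1) of their markers), with symbols for the 4 groups. Pdk4 is highest in the 3 clodronate mice with muscle scores of 7.13 to 10.49, and Klf9 and Fkbp5 rise with their scores across the groups.

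The tested genes with the patterns most like each member over the 22 mice, by Pearson's r of log2(CPM + 1) and given as a description, were the following, up to 3 for each. Mt1 was matched by Mt2 (r = 0.85), Ola1 (0.77) and Tbcb (0.76), and Mt2 by Mt1, Lmna (0.85) and Uqcc2 (0.84). Klf9 was matched by Acadsb, Zbtb20 and Gpihbp1 (0.87 to 0.88), the last an endothelial protein that carries lipoprotein lipase. Nr3c1 was matched by Rtn3 (0.85), Ltbp3 (0.84) and Nxt2 (0.82), and Hsd11b1 by Jkamp (0.82), E2f5 (0.80) and Dlat (0.79). Values of r were lower for Fkbp5 (Mybbp1a, Gpr137b-ps and Adam8, 0.76 to 0.77), Sgk1 (Rab11fip4 and Myo5b, 0.78 and 0.77), Tsc22d3 (Hs3st1, Ackr2 and Clec14a, 0.68 to 0.77) and Zbtb16 (Wtip and Tspan2, 0.75 and 0.74). The 3 genes most like Pdk4, Aqp9, Clec2g and Sel1l3 (0.83 to 0.85), all averaged under 2.2 CPM, close to the floor. No gene in this paragraph other than Mt1 and Mt2 is another of the 10.

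Other genes of the pathway gave the wider setting. Of 22 further genes induced by glucocorticoids, 21 could be tested and 0 passed an adjusted p of 0.05 with the wheel averaged over liposomes, where the median change was -0.07. Only Sult1a1, a sulfotransferase, had an unadjusted p under 0.05 (-0.45, SE 0.18, adjusted p = 0.587), as did 8.09% of all genes, with 4.16% lower. The next were Nfkbia, the inhibitor of NF-κB (0.25, SE 0.14), and Anxa1, an anti-inflammatory annexin (-0.44, SE 0.27). With clodronate 0 of 21 passed and 2 were higher at an unadjusted p under 0.05 (2.13% of all genes were). These were Nfkbia (0.40, SE 0.14, adjusted p = 0.25) and Cebpd (0.41, SE 0.17, adjusted p = 0.396), the latter named after its values were seen. Of 15 chaperones, coregulators and steroid enzymes, 14 were tested and 0 passed for the wheel, with Fkbp4, the chaperone that opposes Fkbp5, at -0.36 (SE 0.13, adjusted p = 0.575), the coactivator Ncoa2 at 0.38 (SE 0.19) and Ptges3, the co-chaperone p23, at -0.22 (SE 0.13). Of 12 inflammatory genes that glucocorticoids repress, 10 were tested and 0 passed in either averaged comparison. Tnf (0.44, SE 0.24) and Vcam1 (0.65, SE 0.36) had the lowest p with the wheel. For Tnf the change was 0.05 with PBS and 0.84 with clodronate, and for Vcam1, an adhesion molecule for leukocytes, it was -0.13 with PBS and 1.43 with clodronate (adjusted p = 0.311), where 3 of the 5 wheel mice were lymphocyte-rich. The interaction of Vcam1 was 1.56 (SE 0.72, adjusted p = 0.649), and most cytokines of the list lay near the floor.

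Zinc genes were examined because of the metallothioneins. Of 8 listed, 6 were tested and 0 passed with the wheel averaged over liposomes. The zinc importers Slc39a8 (-0.98, SE 0.34, adjusted p = 0.567) and Slc39a10 (-0.63, SE 0.28, adjusted p = 0.60) were lower at an unadjusted p under 0.05 (4.16% of all genes were). Slc39a8 was near the floor, with a median of 2.71 CPM and 4 mice at the floor. Slc39a10 had a median of 10.2 and a highest value of 55.9 CPM. The score of the zinc list was 3.86 in control mouse 4 with PBS, where the group median was 2.60. The exporter Slc30a1, itself metal-induced, stood at -0.23 (SE 0.22). The median change of the 6 tested genes was -0.34, beside -0.04 over all genes tested. Around Pdk4, 15 of 16 genes of pyruvate dehydrogenase control and the fatty acid response were tested. The wheel gave 0 calls, with Pdk1, a related kinase, at 0.34 (SE 0.19), Ppard at -0.32 (SE 0.23) and Acot1 at 0.30 (SE 0.23). Clodronate gave 1 call, Pdhb, a subunit of pyruvate dehydrogenase, whose mean was 213.5 and 182 CPM in control and wheel mice with PBS and 101.4 and 109 with clodronate (log2 change -0.96, SE 0.20, adjusted p = 0.043). That call was lost in 5 of 9 other ways of processing, among them upper-quartile scaling (adjusted p = 0.127), without the lymphocyte-rich or the muscle-rich mice (adjusted p = 0.125 and 0.142), and when any 1 of 13 of the 22 mice was left out, namely PBS control mice 1 to 3, PBS wheel mice 3 to 6, clodronate control mice 2 to 4 and clodronate wheel mice 1 to 3 (adjusted p up to 0.105). Of 13 circadian clock genes, which wheel running and the hormone both entrain, 12 were tested and 0 passed in either averaged comparison, with Cry2 (-0.44, SE 0.24), Cry1 (-0.27, SE 0.21) and Ciart (0.29, SE 0.33) leading for the wheel.

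Cell markers moved beside these comparisons. With clodronate, 5 of 10 adipocyte markers and 5 of 10 fibroblast markers were lower at an unadjusted p under 0.05 (8.3% of all genes were) and 0 passed adjustment, and the adipocyte score averaged 9.69, 9.66, 9.43 and 9.20 in control and wheel mice with PBS and then with clodronate. Markers of macrophages, the cells that clodronate is meant to reach, had a median change of -0.20 over 12 genes. Of these, 2 were lower at that level and 0 passed adjustment, and Fcgr1 was at the floor in 4 mice. With the wheel averaged over liposomes, 9 of 12 lymphocyte markers were higher at an unadjusted p under 0.05 (3.93% of all genes were), with 0 of 12 in the PBS arm (0.799%) and 12 of 12 in the clodronate arm (7.04%). Of 12 muscle markers 0 passed with the wheel, although all 12 log2 changes were below 0 (median -1.48). Of the 10 epithelial, 10 endothelial, 10 dividing cell, 7 brown fat and 5 neutrophil markers tested, 0 passed adjustment in any comparison, and the neutrophil genes Ly6g and Camp were at the floor in all mice. Beyond the correlations between mice and the comparisons without lymphocyte-rich or muscle-rich mice given above, their part in the group differences of the 10 genes was not tested.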

How the data were processed

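RNA from the mammary tissue of 22 mice was sequenced with Lexogen QuantSeq 3′ FWD. The authors mapped the reads and deposited a signal for each gene and mouse in CPM, with every value below 1 raised to 1. STAR 2.5.3a and GRCm38 are named in the submitters' processing notes. Above that floor, 100% of values up to 100 CPM were whole reads (within 0.1 read), which gave the depth. The total includes 4 rows that name no gene (unmapped, multimapping, no feature and ambiguous), and genes took 57.4% to 64.6% of reads. The floor hides up to 13 to 20 reads of a gene, so count tests were not used. Where a symbol was repeated (106 symbols), its highest row by mean was kept.

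Groups came from the sample labels. The 10 members and the other lists were chosen with earlier results of these data known. Tests covered the 15138 genes that exceeded the floor in 5 mice or more, and were made on log2(CPM + 1), which understates changes of low genes, with limma 3.58.1 in R 4.3.3 (4 group means, all 22 mice, eBayes with trend, Benjamini-Hochberg adjustment), after tests on simulated data. Scores are means of log2(CPM + 1). Besides the 10 members, the rule for naming genes was those of each other list past an adjusted p of 0.05, or up to 3 with the lowest p for the averaged wheel effect, and the 3 genes most correlated with each member, of which some are not reported here. Marker lists are given by counts. Alternatives were pseudocounts of 0.1, 5 and none, no filter or a mean of at least 5 CPM, upper-quartile scaling, scaling to assigned reads, no variance trend, only the groups compared, a replicate block and leaving out each mouse. Chosen after seeing the data were clodronate against PBS within each activity and leaving out the 5 mice with a lymphocyte score above 3 or the 2 with a muscle score above 9. Of the 5 lymphocyte-rich mice, 3 were wheel mice with clodronate, so that fits without them keep only mice 1 and 2 of that group. Coordinates are from GENCODE M21 (GRCm38), and copies were sought with BLAST 2.17.0 in the last 400 bases of transcripts (97% identity, at least 50 bases). Figures and correlations were made in Python 3.11.15.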

Additional observations from a re-analysis of the deposited data

Results flagged for a closer look

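In 2 of 40 groups of values (10 genes in 4 groups), 1 mouse stood apart from the rest of its group by Dixon's test, and chance gives about 2, or 1 in 20. Sgk1 was 33.7 CPM in control mouse 4 with PBS liposomes, against 20.45 CPM in the next. Mt1 was 460.1 CPM in wheel mouse 4 with PBS liposomes, against 302.5 CPM in the next, and Mt2 was also highest of its group in that mouse. No member had wheel effects that differed between liposomes past an adjusted interaction p of 0.05.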

How the results depend on the processing

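None of the 50 changes of the 10 genes (5 comparisons) passed an adjusted p of 0.05 under any alternative. The direction was kept in 465 of 470 values under other processing with all mice and in 1058 of 1100 with 1 mouse left out (lowest adjusted p 0.138 and 0.0621). Upper-quartile scaling turned the wheel change with PBS of Tsc22d3 to 0.10, Klf9 to 0.0241 and Nr3c1 to 0.0349, and scaling to assigned reads turned Tsc22d3 to 0.0273 and the interaction of Mt2 to 0.0048. With 1 mouse left out, the direction turned for the wheel change with PBS of Tsc22d3 (-0.0661 to 0.12), Klf9 (-0.20 to 0.0245), Nr3c1 (-0.13 to 0.0357) and Hsd11b1 (-0.29 to 0.0267), for that with clodronate of Zbtb16 (-0.0503 to 0.37), Hsd11b1 (-0.0429 to 0.37) and Pdk4 (-0.87 to 0.20), for the averaged wheel change of Zbtb16 (-0.20 to 0.0403), Hsd11b1 (-0.10 to 0.11) and Pdk4 (-0.11 to 0.43), for the clodronate change of Zbtb16 (-0.0446 to 0.21) and for the interaction of Mt2 (-0.29 to 0.28).
Without the lymphocyte-rich mice the wheel change turned to 0.0302 for Tsc22d3 with PBS, to 0.24 for Sgk1 and 1.10 for Pdk4 with clodronate and to 0.17 for Zbtb16 averaged, and the interactions turned to 0.0813 for Mt1, 0.51 for Mt2 and 0.52 for Pdk4. Of the wheel mice with clodronate, that fit kept only mouse 1 and the muscle-rich mouse 2, with 7.92 and 37.75 CPM of Pdk4. Without the muscle-rich mice the averaged wheel change of Hsd11b1 turned to -0.0363 and the clodronate change of Zbtb16 to -0.0501. The cause of these turns was not tested.
Counts over all genes moved more. For the wheel with clodronate the single call became 3 with no filter, 0 when fitted on those 2 groups alone, above a mean of 5 CPM or without the lymphocyte-rich mice, 6 without the muscle-rich mice and 0 to 240 with 1 mouse left out (174 and 240 without wheel mice 1 and 2 given clodronate, 0 without any other clodronate mouse). The averaged wheel effect and the interaction went from 0 to 2 each with no filter. For clodronate the 31 calls became 54 above a mean of 5 CPM, 12 with upper-quartile scaling, 16 with scaling to assigned reads, 20 with no variance trend, 0 without the lymphocyte-rich or the muscle-rich mice, and 12 to 146 with 1 mouse left out (146 without control mouse 1 given clodronate, 70 without control mouse 4 given PBS, and 12 to 19 without PBS control mouse 1 or 3, PBS wheel mouse 6, clodronate control mouse 2 or 3, or clodronate wheel mouse 2 or 3). Within control mice the clodronate count went from 0 to 38 without control mouse 1 given clodronate and to 1 without PBS control mouse 5 or 6, and within wheel mice from 1 to 51 and 18 without clodronate wheel mice 2 and 1, to 3 and 2 without PBS control mouse 2 and clodronate control mouse 2, and to 0 without PBS wheel mouse 2 or clodronate wheel mouse 5; none of the 10 genes passed in these fits. Scaling also moved the share of higher genes among those at an unadjusted p under 0.05, from 16.3% to 50.1% for the wheel with PBS, 20.5% to 41.6% for clodronate, 48.6% to 64.5% for the averaged wheel effect and 83.8% to 62.3% for the interaction (upper-quartile), and from 67.4% to 80.7% for the wheel with clodronate (assigned reads). The median interaction over all genes was 0.091, and -0.0092 with upper-quartile scaling.
The replicate numbers are shared by different mice. Of 31 same-numbered pairs, 12 had correlated deviations over 0.1 (mean r 0.048, range -0.388 to 0.517). Differently numbered pairs were not computed for comparison, so these values cannot tell whether the numbers pair the mice. With the replicate block, 0 genes were called for the wheel with clodronate and 11 for clodronate, and none of the 10 genes passed. Depth limits genes near the floor, where 1 CPM stands for 13 to 20 reads.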
